A study of Homo sapiens with 15 samples.

Results

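The expression of 10 genes of the STAT5 pathway was followed in K562 cells treated with the histone deacetylase (HDAC) inhibitor martinostat. The genes were taken by symbol from a list of known STAT5 targets and their relatives, and all 10 were found among the 60649 genes of the count table. They were the feedback inhibitors CISH, SOCS1, SOCS2 and SOCS3, the kinases PIM1, PIM2 and PIM3, the cytokine gene OSM, the repressor gene BCL6 and the receptor gene EPOR. Of the 10, 9 passed the filter on low counts and were tested. OSM did not pass and is given by its counts.

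K562 is an established human chronic myeloid leukaemia line that carries the BCR-ABL fusion. All groups share this fusion. Poly(A) RNA was sequenced from untreated cells and from cells given 0.15, 0.25, 0.5 or 1 µM martinostat for 24 h, with 3 libraries in each of the 5 groups and 15 in all. The labels number the libraries of a group as biological replicates, without saying whether the cultures were grown apart. In the study that reported the data, a figure legend on this sequencing describes 3 independent experiments. The p-values test differences against the spread between these libraries.

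STAT5A and STAT5B are transcription factors that cytokine receptors activate through JAK kinases, and BCR-ABL activates them without a cytokine. Active STAT5 binds paired TTC and GAA half-sites and switches on CISH, SOCS and PIM genes. CISH and the SOCS proteins bind receptors, JAKs or phosphotyrosine sites and damp the signal, whereas PIM proteins are serine/threonine kinases that are active once made, so that their amount sets their activity. BCL6 is known as a gene that STAT5 represses, OSM as a target that encodes a secreted cytokine, and EPOR as the receptor for erythropoietin that lies upstream of JAK2 and STAT5 in erythroid cells.

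The promoter stretches are shown first, because they differ between members in the letters that STAT5 is known to bind. RefSeq windows of 300 bases (250 before the start and 50 from it, GRCh38.p14) were found for 8 of the 10 members, in 10 windows. The motif searched was TTCNNNGAA, which reads the same on both strands, and it was the only one searched. CISH held 4 matches, all before its start. A window of BCL6 also held 4, and the other 8 windows held 0. Among all 35116 windows, 7.66% held at least 1 match, 0.456% at least 2 and 0.0199% (7 windows) at least 4. Capitals mark the matches in the lines that follow, each read along its gene's strand. The CISH stretch (chr3:50611775-50611907, minus strand) ends at the base before the start and its distal pair (chr3:50611996-50612015) lies farther upstream. The SOCS1 stretch (chr16:11256205-11256337, minus strand) and the PIM1 stretch (chr6:37170019-37170151, plus strand), the same length and the same place relative to the start, are shown for the absence of these letters. The BCL6 sites lie on the minus strand at chr3:187745488-187745496, chr3:187745450-187745473 and chr3:187745424-187745432, around the start of 1 of its RefSeq transcripts.
CISH distal pair: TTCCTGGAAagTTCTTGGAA
CISH next to the start: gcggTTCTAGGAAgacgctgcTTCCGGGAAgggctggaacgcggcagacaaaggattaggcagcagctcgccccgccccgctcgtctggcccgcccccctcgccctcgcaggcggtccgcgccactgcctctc
BCL6 first match: TTCCGAGAA
BCL6 pair at the start: TTCTTAGAActggggTTCTTAGAA
BCL6 last match: TTCTAGGAA
SOCS1 next to the start: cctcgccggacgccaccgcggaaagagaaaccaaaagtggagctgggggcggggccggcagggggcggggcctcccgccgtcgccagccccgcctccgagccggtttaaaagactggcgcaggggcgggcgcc
PIM1 next to the start: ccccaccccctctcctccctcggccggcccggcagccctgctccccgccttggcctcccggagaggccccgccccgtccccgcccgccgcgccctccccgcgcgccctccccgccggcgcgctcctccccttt
A match is a run of letters and not a measured binding site. No match says that these letters are not in the window. The windows of SOCS3 are set at other starts than the one annotated by GENCODE, 848 and 410 bases away. For BCL6 the window with 4 matches is set at a start 257 bases away, and its other window at one 9224 bases away. The starts used for EPOR and PIM3 differ by 28 and 4 bases.

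**Figure D1:**
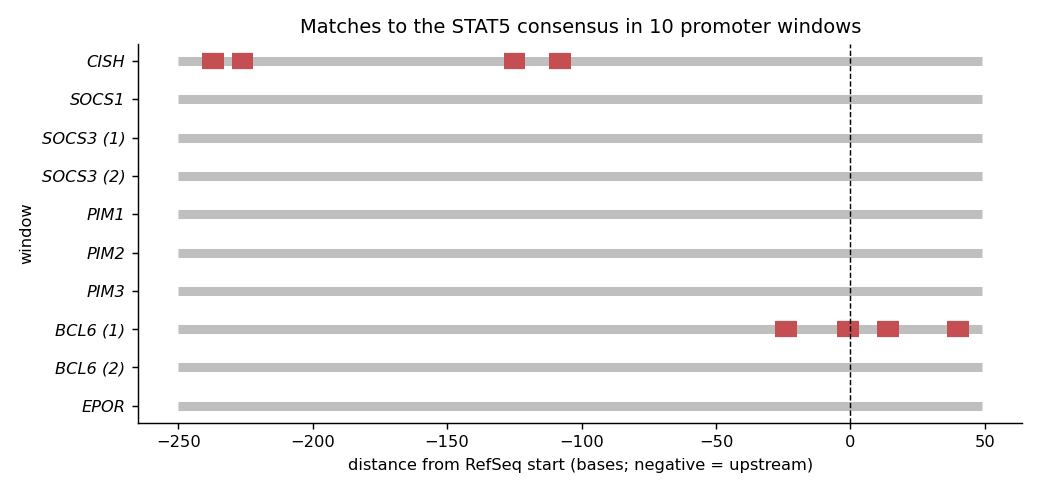
Positions of TTCNNNGAA matches (red) in the RefSeq promoter windows (grey, 1 row per window, with the genes of 2 windows numbered), against the distance from the start in bases. CISH and 1 window of BCL6 hold 4 matches each, and the other 8 windows hold 0.

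Library totals ran from 23755510 to 32805574 counts, and levels are given as CPM, counts relative to the library size after TMM (trimmed mean of M values) scaling. The third replicates at 0.25 and 0.5 µM stood apart on the third principal component (4.47% of the variance), at 70.1 and 75.4 against 16.0 or lower in the other 13, and results that rest on them are given without them as well. Of 8 genes taken as marks of K562 cells, HBE1 was nearly absent from untreated cells (0.170 CPM). GATA1, an erythroid regulator, had a mean of 328 CPM before treatment and of 18.9 CPM at 1 µM, and the summed level of the 8 genes ran from 2340 to 2450 CPM and from 1100 to 1140 CPM in these groups. The summed level of 13 markers of other cell types ran from 490 to 580 CPM without drug and from 1170 to 1420 CPM at 1 µM, with KRT18 (355 and 860 CPM) and COL1A1 (4.36 and 398 CPM) higher in mean level and EPCAM (141 and 20.5 CPM), COL1A2 (18.9 and 9.70 CPM), LYZ (7.81 and 1.76 CPM) and CD3D (3.53 and 1.72 CPM) lower, and with CD8A and MS4A1 at 0 counts in untreated cells. LYZ, CD3D and COL1A2 had higher means at 0.15 µM than in untreated cells (21.4, 15.0 and 22.4 CPM). Their means at 0.25 µM were 19.3, 9.55 and 20.0 CPM. The shifts of the marker genes move with dose, as do the results that follow, and their part in those results was not tested. In bulk libraries, fewer cells with a high level of an mRNA and less of it per cell cannot be told apart.

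To ask how the members responded, each dose was compared with untreated cells in a single fit over all tested genes, in which a gene was called at an adjusted p under 0.05 (edgeR quasi-likelihood F test, Benjamini-Hochberg). SOCS1, SOCS3 and BCL6 rose at all 4 doses, PIM1 rose at the 2 lower doses and fell at the 2 higher ones, and PIM2 and CISH were called at none. At 0.15 µM, 4 of 9 members were called, all higher (SOCS1, SOCS3, PIM1 and BCL6), where 51.2% of all 23711 tested genes were called and 31.9% were called higher. At 0.25 µM, 6 were called, 5 higher and 1 lower, against 62.3% of all genes, 37.4% higher and 24.8% lower. The counts at 0.5 µM were 4 higher and 3 lower, with 66.9% of all genes called, 39.4% higher and 27.6% lower. The counts at 1 µM were 4 higher and 2 lower, with 66.2% called, 38.8% higher and 27.5% lower. Calls higher at all 4 doses, as for SOCS1, SOCS3 and BCL6, were made for 24.6% of all genes. The share of members called therefore lay near that of all genes at each dose.

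The median log2 fold change of the 9 members was 0.32, 0.83, -0.18 and -0.09 in order of rising dose, beside 0.28, 0.32, 0.34 and 0.32 for all tested genes. The libraries of treated and untreated cells did not overlap for 6, 9, 7 and 8 of the 9 members in the same order, and the shares of all genes without overlap were 63.2%, 67.5%, 69.9% and 74.9%. In the test over the 5 groups 7 of 9 members were called, against 73.6% of all genes, with adjusted p values in edgeR's test of 0.182 for CISH and 0.689 for PIM2. The median of all genes depended on the scaling, and was 0.641, 0.845, 0.723 and 0.669 with library totals in place of TMM factors, so that small differences are read relative to it.

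**Figure D2:**
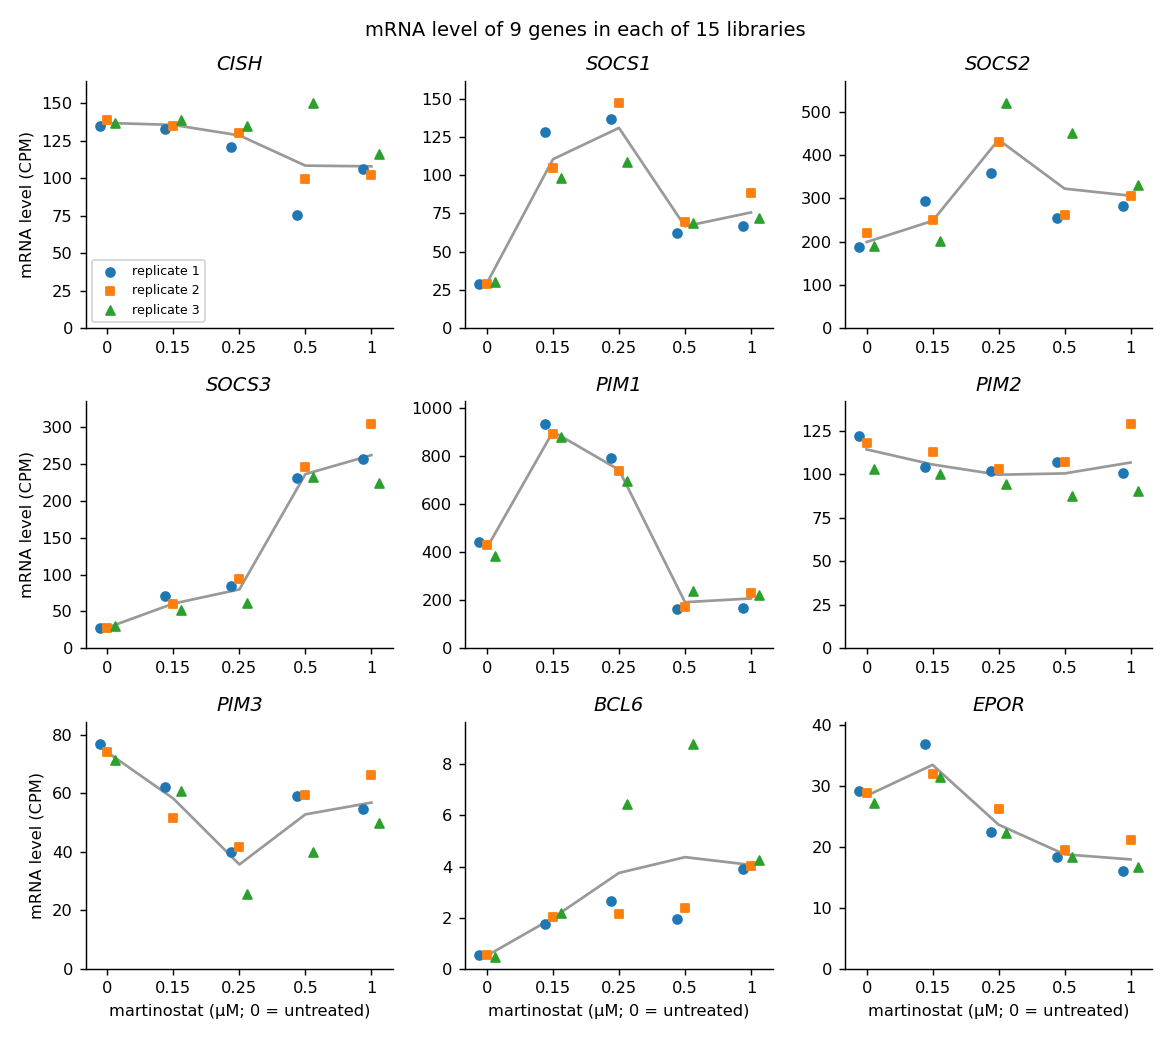
mRNA level in CPM (linear axes from 0) of the 9 tested members in each library against the martinostat concentration in µM, with replicates marked by shape and colour and the group mean as a grey line. PIM1 lies above untreated cells at 0.15 and 0.25 µM and below them at 0.5 and 1 µM, and the third replicates at 0.25 and 0.5 µM are the highest for BCL6, at 6.46 and 8.78 CPM.

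The factor itself fell with dose. STAT5A averaged 510 CPM in untreated cells and 247, 77.9, 9.63 and 9.62 CPM at the 4 doses, with a log2 fold change at 1 µM of -5.73 ± 0.18 (SE) and an adjusted p of 1.67e-14 in edgeR's test. STAT5B averaged 273, 218, 151, 38.8 and 41.5 CPM from untreated cells to 1 µM, and its log2 fold change at 1 µM was -2.72 ± 0.17 (adjusted p = 1.03e-10). STAT5B was not called at 0.15 µM (log2 -0.33, edgeR adjusted p = 0.0975), where its value with library totals was 0.04. Without the third replicates at 0.25 and 0.5 µM, STAT5B was called lower at 0.15 µM (log2 -0.33, edgeR adjusted p = 0.031). Its fall at 0.25 µM (log2 -0.85) lost its call with library totals (log2 -0.31). The 4 doses share their 3 control libraries in these and in all later comparisons with untreated cells.

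EPOR, whose product receives erythropoietin and signals to STAT5 through JAK2, was lower at the 2 higher doses. The gene lies on chromosome 19 (hg38 11377207 to 11384342, minus strand). Its level was 29.1, 28.9 and 27.1 CPM in untreated cells and 36.8, 32.0 and 31.5 CPM at 0.15 µM. At 0.25 µM it was 22.5, 26.2 and 22.2 CPM. The 0.15 µM libraries were all above the untreated ones and those at 0.25 µM all below, without a call in either comparison (log2 0.24, 95% interval -0.06 to 0.53, and log2 -0.26, -0.56 to 0.03). With library totals, with TMM factors from genes of higher level (10 CPM or more) and with a filter of 10 counts in every library, EPOR was called higher at 0.15 µM (log2 0.60, 0.50 and 0.41, edgeR adjusted p = 0.00421, 0.00699 and 0.0147), and its difference at 0.25 µM was positive and not called. EPOR read 18.4, 19.5 and 18.4 CPM at 0.5 µM and 16.0, 21.1 and 16.7 CPM at 1 µM, below every untreated library. The fall was -0.60 ± 0.14 on the log2 scale at 0.5 µM (edgeR adjusted p = 0.00109) and -0.66 ± 0.14 at 1 µM (0.000459), and both calls were lost with library totals (log2 -0.22 and -0.31) and with TMM factors taken over genes above 10 CPM on average (log2 -0.19 and -0.28). From 0.15 to 1 µM, EPOR fell by 0.90 on the log2 scale, a call that held in all 24 alternative analyses.

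OSM, the gene of the cytokine oncostatin M on chromosome 22 (hg38 30262829 to 30266851, minus strand), was at the limit of detection. It had 12 counts in all, in 5 of the 15 libraries. Untreated cells and cells at 0.15 µM had 0 counts, which allows a level of up to 0.0395 and 0.0350 CPM (3 counts over the group, counting error only). There were 2 counts at 0.25 µM and 5 at each of 0.5 and 1 µM, where the exact 95% Poisson interval of 5 counts runs from 1.62 to 11.7. On the same basis the interval of 0 counts reaches 3.69. OSM was not tested for a difference in the main fit. Without the filter on low counts it was tested, and it was called in no comparison of a pair of groups.

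CISH, the first described feedback inhibitor of STAT5, had the 4 motif matches printed above. It lies on chromosome 3 (hg38 50606489 to 50611774, minus strand), and 4.31% of its exon bases are under exons of MAPKAPK3 on the other strand. Its level was 135, 139 and 137 CPM in untreated cells and 133, 135 and 139 CPM at 0.15 µM. At 0.25 µM it was 121, 130 and 135 CPM. The libraries of 0.15 µM and untreated cells overlapped, those at 0.25 µM lay just below, and the log2 fold changes were -0.02 (95% interval -0.39 to 0.35) and -0.09 (-0.46 to 0.28). CISH read 75.7, 99.7 and 150 CPM at 0.5 µM and 106, 102 and 116 CPM at 1 µM.

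The 0.5 µM libraries of CISH spread on both sides of the untreated ones, with a coefficient of variation of 34.8% against 1.32% in untreated cells, whereas the 1 µM libraries were all below. Neither dose was called (log2 -0.34, -0.71 to 0.03, and log2 -0.35, -0.72 to 0.02). Without the third replicate at 0.5 µM, CISH was called lower at that dose (log2 -0.65, edgeR adjusted p = 0.000454) and at 1 µM (log2 -0.35, adjusted p = 0.0180), and it was also called lower at 1 µM without the first replicate at 0.5 µM (log2 -0.35, adjusted p = 0.0419). With library totals its log2 difference was positive at all 4 doses, without a call. The intervals exclude a CISH fall of the size of the STAT5A fall at 1 µM, since their lowest bound at that dose was -0.72.

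SOCS1, whose product binds and blocks the JAK kinase domain, rose at every dose and most at the 2 lower ones. It lies on chromosome 16 (hg38 11254417 to 11256204, minus strand) and shares no exon base with another gene. Untreated cells held 28.9, 29.0 and 30.4 CPM. The level was 128, 105 and 98.5 CPM at 0.15 µM and 137, 147 and 109 CPM at 0.25 µM. Cells at 0.5 µM had 61.9, 69.1 and 68.7 CPM, and cells at 1 µM had 66.6, 88.3 and 72 CPM. The treated libraries were all above the untreated ones, and those of the 2 lower doses were all above those of the 2 higher doses.

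The log2 rise of SOCS1 was 1.91 ± 0.15 at 0.15 µM (edgeR adjusted p = 8.26e-09), 2.15 ± 0.15 at 0.25 µM, 1.18 ± 0.15 at 0.5 µM and 1.36 ± 0.15 at 1 µM (adjusted p = 2.24e-07). Between 0.25 and 0.5 µM SOCS1 fell by 0.97 ± 0.15 on the log2 scale (adjusted p = 5.94e-05), and 1 µM was lower than 0.15 µM by 0.55 (log2 -0.55, adjusted p = 0.00550). These 6 calls held in all 24 alternative analyses.

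SOCS2, which restrains growth hormone signalling, rose at 0.25, 0.5 and 1 µM. It lies on chromosome 12 (hg38 93569814 to 93583487, plus strand), and 4.28% of its exon bases are under SOCS2-AS1 on the other strand. Its level was 188, 220 and 189 CPM in untreated cells and 293, 250 and 201 CPM at 0.15 µM. The 2 groups overlapped and the difference was not called (log2 0.32, 95% interval -0.12 to 0.75), although it was called in 4 of 24 alternatives. These were library totals (log2 0.68, adjusted p = 0.0484), TMM factors from genes of higher level (0.58, 0.0491), a fit of the compared groups alone (0.34, 0.0291) and leaving out replicate 3 at 0.25 and 0.5 µM (0.32, 0.0366). SOCS2 read 358, 430 and 520 CPM at 0.25 µM, 254, 262 and 452 CPM at 0.5 µM and 283, 305 and 331 CPM at 1 µM, all above the untreated libraries. The log2 rise was 1.13 ± 0.21 at 0.25 µM (edgeR adjusted p = 0.000122), 0.70 ± 0.21 at 0.5 µM (0.00636) and 0.62 ± 0.21 at 1 µM (0.0132). The third replicate set the value at 0.5 µM, since without it the log2 rise was 0.37 and no longer called (adjusted p = 0.0632), while with the third replicates at 0.25 and 0.5 µM both left out it was 0.41 and called (adjusted p = 0.0130).

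SOCS3, an inhibitor that acts on JAKs and on receptors of the gp130 family, had the largest rise of the SOCS genes at the 2 higher doses. It lies on chromosome 17 (hg38 78356778 to 78360077, minus strand) and shares no exon base with another gene. Untreated cells held 27.3, 27.0 and 30.0 CPM. The level was 70.6, 60.0 and 51.3 CPM at 0.15 µM and 84.9, 93.3 and 61.4 CPM at 0.25 µM. It was 231, 245 and 232 CPM at 0.5 µM and 257, 304 and 224 CPM at 1 µM. The untreated libraries lay below those of the 2 lower doses, which in turn lay below those of the 2 higher doses, with no overlap between these 3 levels.

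The log2 rise of SOCS3 was 1.11 ± 0.17 at 0.15 µM (edgeR adjusted p = 2.11e-05), 1.51 ± 0.17 at 0.25 µM, 3.07 ± 0.18 at 0.5 µM and 3.22 ± 0.18 at 1 µM (adjusted p = 1.82e-11), or 9.30-fold at 1 µM. The step from 0.25 to 0.5 µM was 1.56 ± 0.17 (adjusted p = 1.04e-06), in the opposite direction to SOCS1 over the same libraries. The step from 0.15 to 0.25 µM (log2 0.40, 0.05 to 0.74) was not called, and was called in 6 of the 24 alternatives.

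PIM1, the member with the highest level per exon length in untreated cells, encodes a kinase that promotes survival and proliferation of blood cells. It lies on chromosome 6 (hg38 37170152 to 37175428, plus strand) and shares no exon base with another gene. Untreated cells held 442, 430 and 384 CPM. The level was 933, 891 and 879 CPM at 0.15 µM and 793, 736 and 697 CPM at 0.25 µM. It was 162, 174 and 240 CPM at 0.5 µM and 169, 232 and 221 CPM at 1 µM. The libraries of the 2 lower doses were all above the untreated ones, and those of the 2 higher doses were all below.

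PIM1 rose by 1.11 ± 0.17 on the log2 scale at 0.15 µM (edgeR adjusted p = 2.07e-05) and by 0.83 ± 0.17 at 0.25 µM (0.000278). It fell by 1.12 at 0.5 µM (log2 -1.12 ± 0.17, 8.63e-06) and by 1.02 at 1 µM (log2 -1.02 ± 0.17, 2.73e-05). Between 0.25 and 0.5 µM the level fell 3.86-fold (log2 -1.95 ± 0.17, adjusted p = 9.37e-08). The 4 dose values and this step held in sign and call in all 24 alternatives, with ranges of 1.05 to 1.46 at 0.15 µM and -1.10 to -0.64 at 1 µM. Of all tested genes, 1.43% (339) were called higher at 0.15 µM, lower at 1 µM and also between these doses, and PIM1 was among them. Over the same 2 doses STAT5A was called lower throughout, so that PIM1 and STAT5A lay on different sides of untreated cells at 0.15 µM and on the same side at 1 µM.

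PIM2, a kinase of the same family on chromosome X (hg38 48913182 to 48919024, minus strand), was called in no comparison with TMM scaling. Its libraries ran from 103 to 122 CPM in untreated cells, from 100 to 113 CPM at 0.15 µM, from 94.4 to 103 CPM at 0.25 µM, from 87.6 to 107 CPM at 0.5 µM and from 90.4 to 129 CPM at 1 µM. The log2 fold change at 1 µM was -0.09 with a 95% interval of -0.39 to 0.21, which excludes changes of the size seen in PIM1. The differences of PIM2 from untreated cells were negative at all 4 doses, but positive at all 4 with library totals, with a call at 0.25 µM (log2 0.32, adjusted p = 0.0483).

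PIM3, the remaining kinase of the family on chromosome 22 (hg38 49960768 to 49964072, plus strand), was lowest at 0.25 µM. Its level was 76.8, 74.1 and 71.3 CPM in untreated cells and 39.9, 41.7 and 25.5 CPM at 0.25 µM, with no overlap. The fall was -1.05 ± 0.19 on the log2 scale (edgeR adjusted p = 8.35e-05) and held in all 24 alternatives, with a value of -0.84 without the third replicates at 0.25 and 0.5 µM. PIM3 read 62.2, 51.5 and 61.0 CPM at 0.15 µM, 59.1, 59.6 and 39.8 CPM at 0.5 µM and 54.6, 66.2 and 49.8 CPM at 1 µM, all below the untreated libraries. Of these only 0.5 µM was called (log2 -0.49, adjusted p = 0.0269), and the call was lost in 9 of 24 alternatives, among them each other scaling (log2 -0.41, -0.14 and -0.09) and leaving out untreated replicate 1 or 2 (-0.47 and -0.49) or replicate 3 at 0.5 µM (-0.32). The intervals at 0.15 and 1 µM were -0.74 to 0.04 and -0.77 to 0.01, and PIM3 was called lower in 2 of 24 alternatives at 0.15 µM and in 5 of 24 at 1 µM.

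BCL6, a transcriptional repressor that STAT5 is known to hold down, rose from a low level. It lies on chromosome 3 (hg38 187721377 to 187745725, minus strand), and 8.2% of its exon bases are under exons of 2 unnamed genes on the other strand. Untreated cells held 0.532, 0.541 and 0.470 CPM, or 39 counts in the 3 libraries. The level was 1.76, 2.01 and 2.2 CPM at 0.15 µM and 2.64, 2.15 and 6.46 CPM at 0.25 µM. It was 1.94, 2.38 and 8.78 CPM at 0.5 µM and 3.90, 4.04 and 4.25 CPM at 1 µM. The treated libraries were all above the untreated ones, while the groups at 0.25 and 0.5 µM were stretched by replicate 3.

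The log2 rise of BCL6 was 1.94 ± 0.56 at 0.15 µM (edgeR adjusted p = 0.00770), 2.87 ± 0.55 at 0.25 µM, 3.10 ± 0.55 at 0.5 µM and 2.97 ± 0.55 at 1 µM (0.000142). Without the third replicates at 0.25 and 0.5 µM the values at these doses were 2.23 ± 0.32 and 2.10 ± 0.32, still called (adjusted p = 1.36e-06 and 3.84e-06), and the 1 µM value was 3.02 ± 0.29. The difference between 1 and 0.15 µM was not called (log2 1.03, 0.01 to 2.04), but was called in 7 of 24 alternatives and had an adjusted p of 0.000793 without these replicates. In a window of BCL6, as in that of CISH, 4 motif matches were found, and the 2 genes differed in response, with CISH called at no dose except in the alternatives given above.

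**Figure D3:**
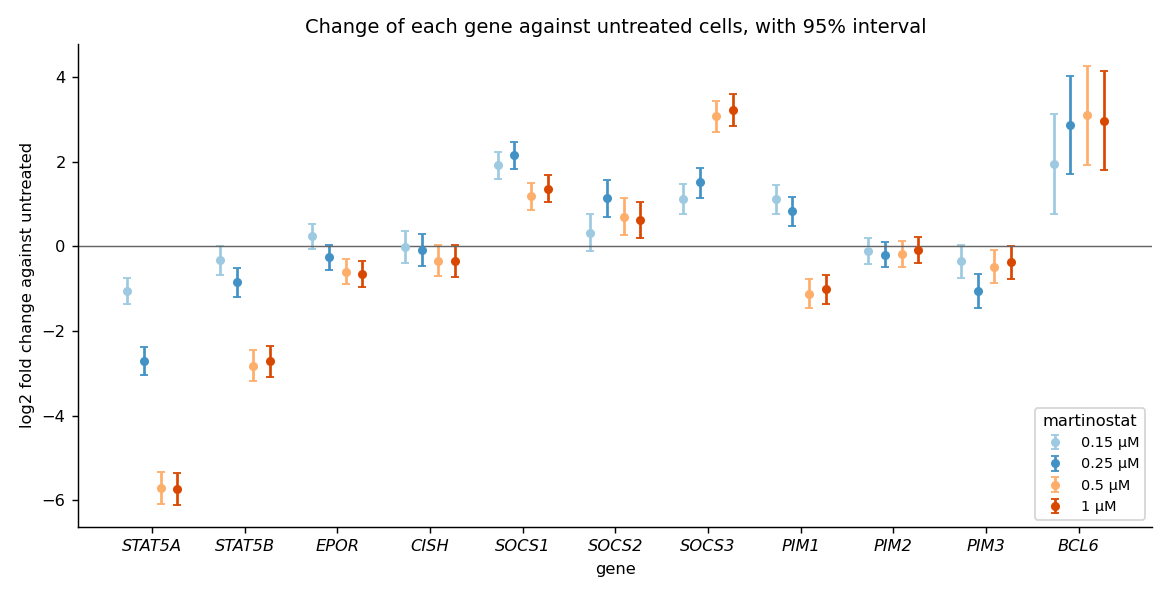
log2 fold change against untreated cells, with its 95% interval, of STAT5A, STAT5B and the 9 tested members at the 4 martinostat concentrations (colours). STAT5A falls to -5.73 and SOCS3 rises to 3.22 at 1 µM, and PIM1 changes sign between 0.25 and 0.5 µM. The EPOR falls at 0.5 and 1 µM and the PIM3 fall at 0.5 µM are not called with library totals, under which CISH and PIM2 are positive at all 4 doses, without a call for CISH.

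The makeup of the families was compared per kilobase of exon, as each gene's share of the summed CPM per kilobase in a library, which does not depend on the scaling. It does depend on the exon lengths, which cover all annotated exons of a gene and not only those of the transcripts present. PIM1 took 64.8% ± 0.247 (SD, n = 3) of the PIM sum in untreated cells, 82.1% ± 0.205 at 0.15 µM and 51.4% ± 4.85 at 1 µM. The sum of the PIM genes was 213 CPM per kilobase in untreated cells, 362 at 0.15 µM and 133 at 1 µM. PIM2, although not called, thus took 19.4% of the sum in untreated cells, 10.6% at 0.15 µM and 29.1% at 1 µM.

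Among the feedback inhibitors, no single gene led at every dose per kilobase of exon. In CPM, without division by length, SOCS2 had the highest mean in every group (199, 248, 436, 323 and 306 CPM from untreated cells to 1 µM). The order that follows therefore rests on the exon lengths used. SOCS2 and CISH had the largest shares of the CISH and SOCS sum in untreated cells (36.3% ± 2.22 and 32.0% ± 0.639). SOCS1 led at 0.15 µM with 41.4% ± 1.10. SOCS3 led at 0.5 µM with 44.8% ± 5.82 and at 1 µM with 46.2% ± 3.85, from 12.2% ± 0.884 in untreated cells. The share of CISH went down to 10.4% ± 1.44 at 1 µM while the sum went from 84.6 to 207 CPM per kilobase.

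**Figure D4:**
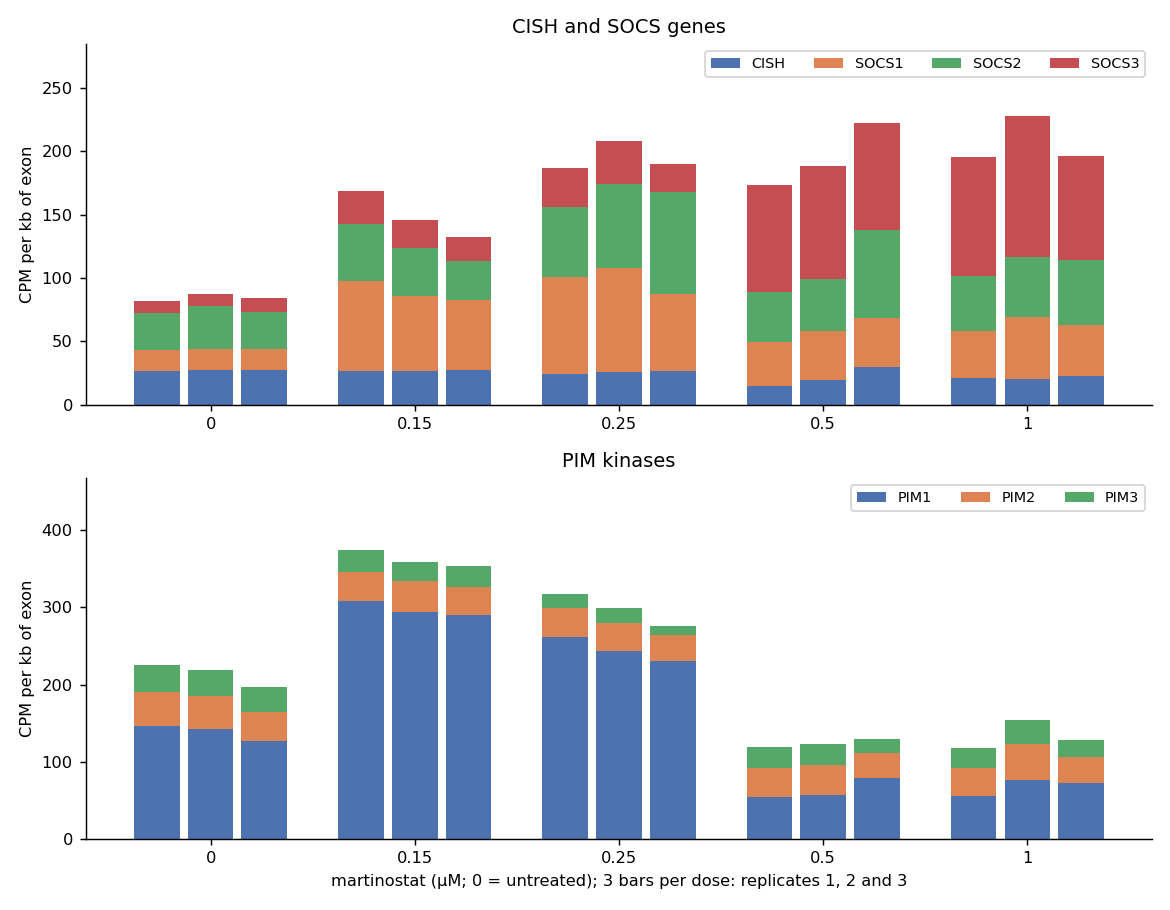
Stacked levels in CPM per kilobase of exon (axes from 0) of CISH and SOCS1 to SOCS3 (top) and of PIM1 to PIM3 (bottom) in each of the 15 libraries, grouped by martinostat concentration in µM. SOCS1 takes the largest part at 0.15 µM and SOCS3 at 0.5 and 1 µM, and PIM1 takes 82.1% of the PIM level at 0.15 µM and 51.4% at 1 µM.

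The doses were then compared with each other. From 0.15 to 0.25 µM, 3 of 9 members were called (12.3% of all genes, 4.96% higher and 7.32% lower), namely SOCS2 higher (log2 0.81, edgeR adjusted p = 0.0153) and PIM3 (-0.71, 0.0189) and EPOR (-0.50, 0.0262) lower. Each call was lost when some single libraries were left out. That of SOCS2 was lost without replicate 2 or 3 at 0.15 µM (log2 0.81 and 0.73) or replicate 3 at 0.25 µM (0.69), although the fold hardly moved in the first case. That of PIM3 was lost without replicate 1 or 3 at 0.15 µM (-0.66 and -0.64) or replicate 3 at 0.25 µM (-0.50). The EPOR call was lost in 12 of 24 alternatives, among them leaving out each replicate at 0.15 µM (-0.43, -0.54 and -0.50) and replicate 1 or 3 at 0.25 µM (-0.47 and -0.44). With replicate 3 left out at both 0.25 and 0.5 µM, SOCS2 (log2 0.69, adjusted p = 0.00132) and PIM3 (-0.49, 0.0190) were called, SOCS3 was called higher as well (0.58, 0.00704) and EPOR was not called (-0.43, 0.0550).

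From 0.25 to 0.5 µM, 4 of 9 members were called against 30.4% of all genes (14.4% higher and 16.0% lower), with SOCS3 and PIM3 higher and SOCS1 and PIM1 lower. The PIM3 step (log2 0.57, edgeR adjusted p = 0.0276) was lost without replicate 3 at 0.25 µM (0.40) or replicate 1 or 2 at 0.5 µM (0.48 and 0.47), and its libraries overlapped, but it was called with replicate 3 left out at both doses (0.56, adjusted p = 0.00707). Without the third replicate at 0.5 µM, CISH and SOCS2 were called lower over this step as well (log2 -0.56 and -0.76). From 0.5 to 1 µM, 0 of 9 members were called by edgeR, with 0 at an unadjusted p under 0.05, and DESeq2 also gave 0 and 0. Of all genes 0.0% (0) were called by either tool, with 372 genes at an unadjusted p under 0.05 in edgeR and 445 in DESeq2. The members' 95% intervals for this step included -0.19 to 0.49 for SOCS3 and -0.24 to 0.45 for PIM1. Between 0.15 and 1 µM, 4 of 9 members were called (44.5% of all genes, 21.5% higher and 23.1% lower), SOCS3 higher (log2 2.11) and SOCS1, PIM1 (log2 -2.12) and EPOR lower, and 7 were called without the third replicates at 0.25 and 0.5 µM, with CISH lower and SOCS2 and BCL6 higher in addition.

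The wider pathway was described with 4 lists, whose counts at 1 µM stand beside 66.2% of all tested genes called, 38.8% higher and 27.5% lower. Of 11 JAK and STAT genes, 6 were called higher and 4 lower at 1 µM (7 and 4 with library totals), with a median log2 fold change of 0.73 beside 0.32 for all genes. JAK3, the kinase of the common gamma chain, rose from 0.0933 to 17.4 CPM, and the lower genes were JAK2, STAT5A, STAT5B and STAT6. JAK3 was tested only because its level with drug passed the filter on low counts. Of 14 further negative regulators, 3 were higher and 6 lower at 1 µM, but 5 and 4 with library totals, and the median was -0.22. The phosphatase gene PTPN6 rose from 2.95 to 12.5 CPM (log2 2.08 ± 0.23), whereas SOCS6, a further gene of the SOCS family, fell from 31.9 to 7.65 CPM (log2 -2.06 ± 0.24).

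Of 15 other cytokine receptor genes, 12 were tested, and PRLR, IL2RA and IL7R did not pass the filter on low counts. At 0.15 µM 11 were higher and 0 lower (31.9% and 19.4% of all genes), and at 1 µM 9 were higher and 1 lower. The median log2 fold change at 1 µM was 2.23 against 0.32 for all genes. The growth hormone receptor gene GHR went from 0.0273 to 2.82 CPM, and the common gamma chain gene IL2RG from 16.0 to 1.58 CPM (log2 -3.34 ± 0.25). GHR was tested only because its level with drug passed the filter. Such a gene can hardly be found lower, so the counts and the median of this list are partly set by the filter. EPOR, a member and not of this list, was not called at 0.15 µM, except in the 3 alternatives given above. Of 10 other genes described as STAT5 targets, 3 rose and 6 fell at 1 µM (3 and 5 with library totals), with a median of -1.03. FOS, an immediate early gene, rose from 4.10 to 152 CPM (log2 5.21 ± 0.20) and MYC, which drives growth, fell from 610 to 35.0 CPM (log2 -4.13 ± 0.27).

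For each tested member the gene was sought, among 10032 genes averaging 10 CPM or more, whose 4 log2 fold changes differed least from those of the member (root mean square difference over 4 doses, 12 treated and 3 untreated libraries). For PIM1 it was RNASE1, with an untreated level of 18.3 CPM, a level of 42.8 CPM at 0.15 µM and one of 9.03 CPM at 1 µM, at a difference of 0.062. The gene nearest to SOCS1 was DENND11 (0.098), with 4.63 CPM without drug and 18.2 CPM at 0.15 µM. SOCS3 was matched less closely, by INA (0.174), which went from 7.30 to 63.8 CPM at 1 µM. BCL6 was matched by SEMA6A (0.118), EPOR by UROS (0.053), SOCS2 by PPFIBP1 (0.095), PIM3 by EPS8L1 (0.044), CISH by STMP1 (0.026) and PIM2 by NRBP1 (0.042).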

How the data were processed

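The data are gene-level mRNA sequencing counts of 15 libraries. According to the study's methods and processing notes, the authors trimmed reads with Trim Galore 0.6.10 and Trimmomatic. They aligned the reads to hg38 with HISAT2 2.2.1 and counted fragments per GENCODE gene with featureCounts 1.5.3. The strand setting of the counting is not given in the sources used here. The deposited table holds raw counts, not normalised. The FPKM tables were not used here.

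edgeR 4.0.16 (R 4.3.3) was run on these counts. After filterByExpr, which kept 23711 genes, and TMM scaling, all 15 libraries entered 1 robust quasi-likelihood fit whose only term was the group (10 residual degrees of freedom, biological coefficient of variation 0.228). p-values were adjusted over all tested genes, and called means under 0.05. Totals of 23755510 to 32805574 counts set the counting error. The Poisson interval and the limits for 0 counts of OSM cover counting error only. The intervals of the log2 fold changes come from the quasi-likelihood fit and include the spread between libraries. The 24 alternatives were 3 other scalings, 2 other filters, DESeq2 1.42.0, fits of the compared groups alone, a replicate block, leaving out each library, and leaving out the third replicates at 0.25 and 0.5 µM together, chosen after seeing the data.

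The members and lists were chosen with earlier results of these data known. Named genes were all members, STAT5A and STAT5B, from each list the called genes that were highest and lowest in log2 fold change at 1 µM (averaging at least 1 CPM), and the gene nearest to each member. The marker genes HBE1, GATA1, KRT18, COL1A1, EPCAM, COL1A2, LYZ and CD3D were named after their values were seen. Symbols were found for 99.8% of identifiers. Positions and exon lengths came from a later GENCODE release on hg38, and promoters from RefSeq (GRCh38.p14).

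Equal replicate numbers were checked by correlating deviations from group means. All 3 same-number correlations exceeded 0.1 in 1 of 10 group pairs (0.25 and 0.5 µM: 0.266, 0.268 and 0.579), where the block changed no call of a member, and the labels do not say that a number marks a shared culture.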

Additional observations from a re-analysis of the deposited data

How the results depend on the processing

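Of 72 member results (9 genes in 8 comparisons), 34 were called. In the 24 alternatives 26 of these kept their call, 8 lost it at least once and 0 changed sign. Among the 38 results that were not called, 13 were called at least once, and 23 changed sign at least once (71 changes in all). A single one of these sign changes came with a call, that of PIM2 at 0.25 µM, which was 0.32 with library totals (adjusted p = 0.0483). The number of members called stayed within 1.5 times its value in 7 of 9 comparisons. Between 0.25 and 0.15 µM it was 1 in place of 3 when only the compared groups were fitted, where fewer samples set the spread, and 0 to 3 when single libraries were left out. Between 1 and 0.15 µM it was 7 in place of 4 without the third replicates at 0.25 and 0.5 µM, and the cause was not tested. With the replicate block, PIM3 at 1 µM (-0.39, adjusted p = 0.0464) and BCL6 between 1 and 0.15 µM (1.05, adjusted p = 0.0334) were called in addition, and the number of members called was 4, 6, 7 and 7 against untreated cells. It changed no other call. All 6 libraries at 0.25 and 0.5 µM correlated best with their own number in the other group, a hint from the data and not from the design. Depth limits OSM, at 12 counts in all. BCL6 had 39 counts in untreated cells. Its SE at 1 µM was 0.55, and 0.29 without the third replicates at 0.25 and 0.5 µM. The strand setting, and with it the handling of fragments in exons shared with MAPKAPK3, SOCS2-AS1 and the genes opposite BCL6, is not given in the sources used here.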
